A study of Mus musculus with 40 samples.

Results

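The 82 genes described here are the protein-coding genes that start within 3 Mb of Cdkn1a, the gene of the cyclin-dependent kinase inhibitor p21, on mouse chromosome 17, leaving out Cdkn1a itself. On the GRCm38 build the first of them starts at 26113299 (Tmem8) and the last at 32036100 (Rrp1b), and Cdkn1a, on the plus strand, ends at 29100727. They were chosen by position and by level: of 103 protein-coding genes in the window, 82 reached a TPM (a length-corrected share of all transcripts, scaled to the same total in each tumour) of at least 1 in 4 or more of 40 tumours, and 21 did not. In all, 16650 of the 43346 genes in the tables passed the same filter. Of the 82, 54 start to the left of Cdkn1a and 28 to the right, and 57 passed in all 40 tumours. The members just inside the filter were Slc26a8 (4 tumours), Pacsin1 (5) and Rsph1 (6), and just outside it were Cryaa (3 tumours, highest TPM 3.58), Tff1, Hsf2bp and 4930539E08Rik (2 each).

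RNA-seq was made from spontaneous mammary tumours of MMTV-Wnt1 mice, in which the mouse mammary tumour virus promoter directs the ligand Wnt1 to mammary epithelium, and every group carries that transgene. Tumours were wild-type for Trp53 and Cdkn1a, p53-null or p21-null, and the mice were untreated or received doxorubicin, a topoisomerase II poison that breaks DNA, at 4 mg/kg intraperitoneally each day for 5 days, with harvest 24 h after the last dose. The untreated groups were wild-type (6 tumours from 6 mice), p53-null (6 from 4) and p21-null (6 from 5). The treated groups were wild-type (6 from 5), p53-null (6 from 5) and p21-null (10 from 9), with a mouse being all tumours of a group whose titles carry the same number. No age, no strain for the DNA around a targeted allele and no map of the deleted parts of Trp53 and Cdkn1a is given in the sources used here. Wild-type libraries were made with a total RNA kit and both null genotypes with another kit, so kit and genotype cannot be told apart there. Genotypes are therefore compared below among null tumours, and wild-type values stand beside them without a test between them. The tables hold TPM without counts, so depth is unknown and no counting interval can be given.

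p53 is a transcription factor that DNA damage stabilises, and Cdkn1a is among its best-known targets. The p21 protein binds cyclin-dependent kinases and holds the retinoblastoma family in the state that silences cell cycle genes. A targeted allele is bred together with the chromosome segment around it, so a gene near Cdkn1a can differ between p21-null and other mice through the loss of p21, through the targeted allele itself or through DNA variants of the strain in which the allele was made. In a comparison with p53-null tumours, the loss of p53 on the other side is a further route. The design has no group that separates these routes, as wild-type libraries differ in kit, and they cannot be told apart here. The question is which genes around Cdkn1a differed between p21-null and p53-null tumours, whether they differed with and without doxorubicin, and whether distance from Cdkn1a mattered.

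The promoters of 4 members named below are shown first, as 300 bases in the gene's own direction. They run from 250 before to 50 after the RefSeq start (GRCm38.p6). Rab44, the member with the largest genotype difference, has no entry among the promoters, so the motif counts do not cover it. Hmga1 and Scube3 are not printed. Def6 and Mdga1 rose with doxorubicin in wild-type and p21-null tumours, Glo1 differed between the null genotypes with and without treatment, and Cmtr1 rose with doxorubicin in both null genotypes. Capitals mark a match to the decamer of which p53 binds a pair.

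Def6, 17:28207528-28207827, plus strand: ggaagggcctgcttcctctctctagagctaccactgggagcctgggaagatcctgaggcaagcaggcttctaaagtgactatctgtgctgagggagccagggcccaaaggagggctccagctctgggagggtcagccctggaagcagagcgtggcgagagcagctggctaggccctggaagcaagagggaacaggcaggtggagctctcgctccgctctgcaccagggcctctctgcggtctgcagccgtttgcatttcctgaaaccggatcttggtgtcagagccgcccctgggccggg
Mdga1, 17:29887833-29888132, minus strand: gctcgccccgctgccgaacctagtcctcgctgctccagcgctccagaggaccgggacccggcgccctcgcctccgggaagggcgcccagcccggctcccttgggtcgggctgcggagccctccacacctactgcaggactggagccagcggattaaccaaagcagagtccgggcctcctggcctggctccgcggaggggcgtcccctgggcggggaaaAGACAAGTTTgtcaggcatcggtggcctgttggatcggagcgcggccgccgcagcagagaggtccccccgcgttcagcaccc
Glo1, 17:30612610-30612909, minus strand: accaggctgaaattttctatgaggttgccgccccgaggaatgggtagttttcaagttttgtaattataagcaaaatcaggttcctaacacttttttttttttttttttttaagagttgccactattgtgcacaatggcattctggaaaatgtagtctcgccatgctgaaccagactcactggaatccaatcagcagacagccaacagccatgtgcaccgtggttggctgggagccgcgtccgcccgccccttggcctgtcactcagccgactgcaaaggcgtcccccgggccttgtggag
Cmtr1, 17:29660345-29660644, plus strand: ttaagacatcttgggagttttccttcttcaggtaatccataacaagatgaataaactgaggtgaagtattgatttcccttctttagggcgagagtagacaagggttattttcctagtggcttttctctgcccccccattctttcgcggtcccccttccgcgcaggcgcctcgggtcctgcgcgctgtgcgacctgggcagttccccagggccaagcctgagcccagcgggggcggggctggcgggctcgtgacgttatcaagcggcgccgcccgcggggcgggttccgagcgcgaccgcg

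The decamer was found once in these windows, in Mdga1, where it begins 32 bases before the start. Of all 32851 promoter windows, 8.36% hold such a decamer on either strand, and of the 87 windows of 65 members with an entry, 4 do (4.6%: Mdga1, Phf1, Pim1 and Zbtb9). The CHR element (TTTGAA on either strand), through which complexes downstream of p21 silence cell cycle genes, stood in 13 of the 87 windows (14.9%) against 17.9% of all windows, and in none of the 4 printed. The RefSeq windows of Mdga1 and Glo1 lie inside the genes as GENCODE annotates them, since longer transcripts start further right.

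Most of the 82 genes differed little between the null genotypes. On the protein-coding scale (each tumour rescaled to the same sum as TPM over nuclear protein-coding genes), the median member stood at 25.3 in untreated p21-null and 25.0 in untreated p53-null tumours, with Rps10, a ribosomal protein gene, highest in both. The log2 fold change of TPM + 1 was under 0.5 in size for 71 of 82 members in untreated and 67 of 82 in treated tumours. The median size was 0.19 in untreated tumours against 0.18 over 14151 protein-coding genes tested, and 0.24 in treated tumours against 0.24. The median deviation of the members from a common centre, the mean of the 4 null group means, lay between -0.15 and 0.12 log2 units in all 23 null mice.

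In untreated tumours, 6 of 82 members (7.32%) passed the test, against 1.2% of all genes tested (limma, adjusted p under 0.05). Rab44, Glo1, Rgs11 and Grm4 were higher in p21-null and Hmga1 and Scube3 were lower. In treated tumours, 17 members (20.7%) passed, 8 higher and 9 lower in p21-null, against 14.5% of all genes. Rab44, Glo1, Hmga1 and Scube3 passed in both with the same sign, which is 4 of 82 members (4.88%) against 0.781% of all genes. These comparisons share no tumours, but the joint fit gives both the same estimate of each gene's spread, so they are not fully independent. By a count that needs no estimate of the spread, 13 members (15.9%) had groups of mice that did not overlap in untreated tumours, against 7.0% of all genes. In treated tumours there were 5 such members (6.1%, against 3.01%). Hmga1, Rab44 and Glo1 did so in both (3.66%, against 0.811%). These counts include Grm4 and Pacsin1. Each of these reached 1 TPM only in tumours of the null genotype where it was higher, and so passed the filter through that genotype.

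**Figure D1:**
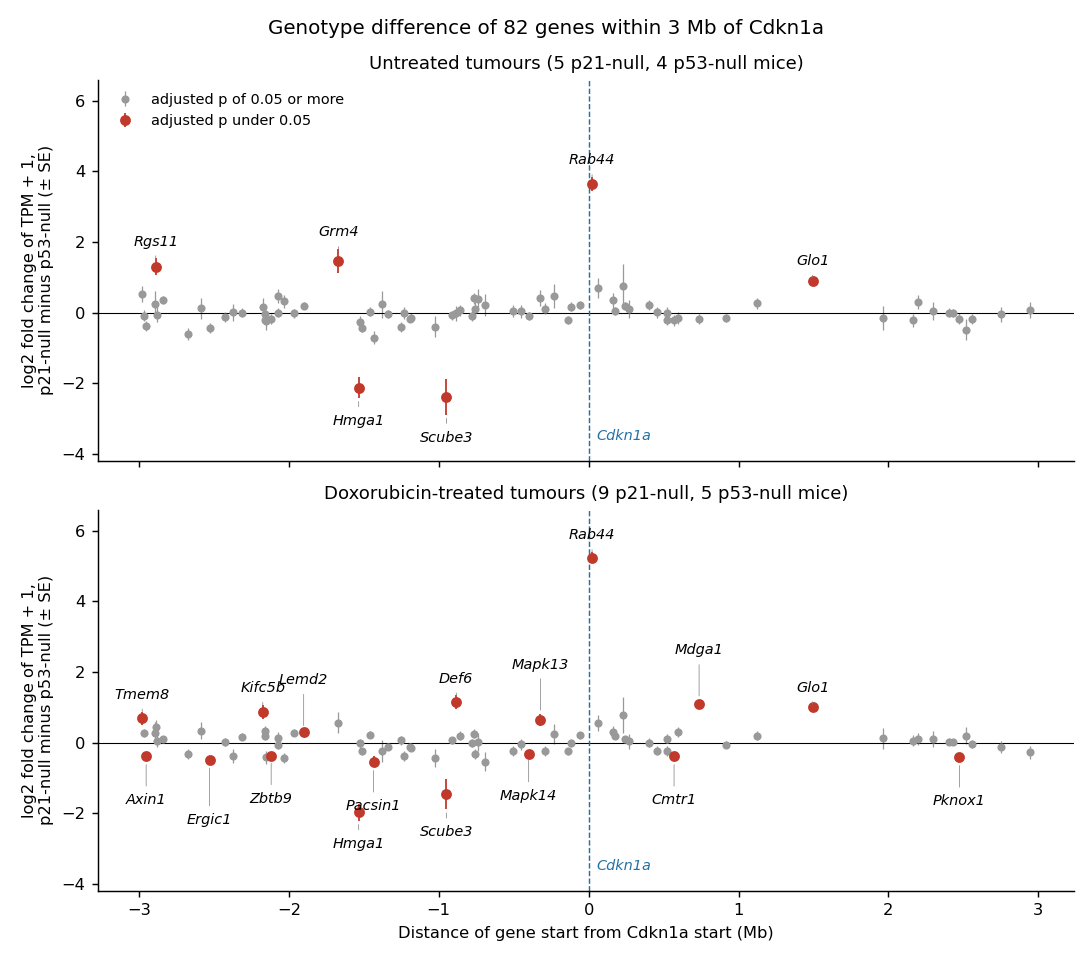
Each point is 1 of the 82 genes, placed by the distance of its start from the Cdkn1a start in Mb (horizontal) with its log2 fold change of TPM + 1, p21-null minus p53-null, and SE (vertical), in untreated (top) and treated tumours (bottom); red points passed limma at an adjusted p under 0.05. Rab44, next to Cdkn1a, stands at 3.65 and 5.24, and the other red points lie on either side of 0 across the window.

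Rab44 (ENSMUSG00000064147, 17:29114145-29148980, plus strand) is the neighbour of Cdkn1a to the right, on the same strand, and starts 13417 bases after the end of Cdkn1a. It encodes a large Rab GTPase known from mast cells and osteoclasts. The 4 untreated p53-null mice stood at 1.15, 0.65, 0.5 and 0.62 TPM, and the 5 treated ones at 1.44, 1.18, 0.34, 0.86 and 1.0. The 5 untreated p21-null mice stood at 26.9, 19.6, 26.0, 13.8 and 18.8 TPM, and the 9 treated ones between 60.4 and 89.5 with a median of 66.0. Every p21-null mouse was above every p53-null mouse, and every treated p21-null mouse above every untreated one. The log2 fold change, p21-null minus p53-null, was 3.65 ± 0.19 (SE) in untreated tumours (limma, adjusted p = 7.58e-12) and 5.24 ± 0.16 in treated tumours (adjusted p = 9.66e-17).

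Rab44 also rose with doxorubicin in p21-null tumours, by 1.76 ± 0.16 on the log2 scale (limma, adjusted p = 1.83e-07). In p53-null tumours the difference was 0.17 ± 0.19 (limma, adjusted p = 0.792). The genotype difference was larger with treatment by 1.6 ± 0.25 log2 units (limma interaction, adjusted p = 0.00114). Rab44 and Mdga1 were the 2 of 82 members to pass that test (2.44%, against 0.571% of all genes). With a pseudocount of 0.1 in place of 1 that interaction no longer passed. In wild-type tumours Rab44 stayed low on the protein-coding scale, between 0.38 and 2.13 untreated (n = 6) and between 0.64 and 2.61 treated (n = 5).

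Both targeted genes were listed above 0 in the tumours that lack them. Trp53 had a mean of 61.1 ± 6.74 TPM (SD, n = 4) in untreated and 51.7 ± 14.5 (n = 5) in treated p53-null tumours, against 100.1 ± 11.7 (n = 5) and 85.0 ± 11.9 (n = 9) in p21-null tumours. With the deleted parts unknown, these levels do not check the labels. Wnt1, the transgene's ligand, was between 35.7 and 208.9 TPM in all null mice. Cdkn1a stood at 67.2, 45.3, 63.0, 28.1 and 50.9 TPM in the untreated p21-null mice and between 186.7 and 279.8 in the 9 treated ones. In p53-null mice it was between 14.3 and 64.7 untreated and between 12.1 and 86.7 treated. Rab44 amounted to 37.0% to 49.2% of the TPM of Cdkn1a in untreated and 23.6% to 47.9% in treated p21-null mice, and to at most 7.14% in any mouse of the other groups. Among the 9 treated p21-null mice, whose libraries share a kit, the log2(TPM + 1) values of Rab44 and Cdkn1a were the 1 relation computed. Pearson r was -0.294 (exact permutation p = 0.44) and the Spearman coefficient was -0.183 (exact permutation p = 0.644). Without the 2 mice farthest from the median of Cdkn1a, r was -0.242 (n = 7).

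The other members nearest to Cdkn1a did not pass. Srsf3, a splicing factor 58.3 kb to the left, differed by 0.22 ± 0.12 log2 units untreated and 0.21 ± 0.10 treated (limma, adjusted p = 0.399 and 0.137). Cpne5, a calcium-dependent phospholipid-binding protein 64.6 kb to the right, differed by 0.69 ± 0.28 and 0.56 ± 0.23 (limma, adjusted p = 0.265 and 0.102). Stk38, the kinase NDR1, Kctd20, a BTB-domain protein, and Ppil1, a cyclophilin of the spliceosome, lie within 159.8 kb and had differences between -0.25 and 0.35. Their adjusted p in limma was at least 0.0978 in both comparisons. Stk38 in treated tumours was near 0, and its sign changed between scalings. Other settings gave treated calls for Cpne5 and Kctd20. Cpne5 passed in the fit of all 6 groups and without p53-null mouse m2551. Kctd20 passed on the protein-coding scale and without p21-null mouse m4183 or m4380.

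Glo1 (ENSMUSG00000024026, 17:30584936-30626871, minus strand) encodes glyoxalase 1, which detoxifies methylglyoxal, and lies 1.49 Mb to the right of Cdkn1a. Its 4 untreated p53-null mice stood at 85.1, 74.6, 83.5 and 80.3 TPM and its 5 untreated p21-null mice at 140.0, 152.8, 150.1, 159.3 and 148.7. The 5 treated p53-null mice were at 80.3, 79.4, 61.9, 54.8 and 73.1 TPM, and the 9 treated p21-null mice between 126.3 and 161.1 with a median of 141.0. No p21-null mouse overlapped a p53-null mouse, while treated and untreated mice of each genotype overlapped. Glo1 was higher in p21-null tumours by 0.89 ± 0.10 log2 units untreated (limma, adjusted p = 5.68e-06) and by 1.01 ± 0.08 treated (adjusted p = 8.53e-09), a 1.85-fold and a 2.02-fold difference.

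Wild-type tumours had Glo1, on the protein-coding scale, between 71.8 and 99.5 untreated and between 65.7 and 77.7 treated. The p53-null mice were between 93.4 and 103.6 untreated and 68.9 and 96.9 treated, and the p21-null mice between 163.4 and 189.2 and between 147.8 and 189.0. Doxorubicin moved Glo1 by -0.09 ± 0.08 in p21-null and -0.22 ± 0.10 in p53-null tumours, neither of which passed (limma, adjusted p = 0.537 and 0.367). The gene to its left, Btbd9, named after its values were seen, differed by 0.26 and 0.19 log2 units untreated and treated and passed in neither.

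Hmga1 (ENSMUSG00000046711, 17:27556497-27563674, plus strand) encodes an AT-hook protein that bends chromatin, and was lower in p21-null tumours. It stood at 107.0, 69.5, 71.8 and 221.5 TPM in untreated p53-null mice and at 21.3, 25.1, 29.8, 13.9 and 29.3 in untreated p21-null mice. The treated p53-null mice were at 71.7, 110.5, 63.2, 118.2 and 99 TPM and the treated p21-null mice between 12.7 and 26.7. The groups did not overlap in either comparison, and the difference was -2.13 ± 0.29 log2 units untreated and -1.98 ± 0.24 treated (limma, adjusted p = 0.000205 and 8.22e-06).

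This difference is uncertain because a near-identical copy, Hmga1b on chromosome 11, can take reads from Hmga1. Hmga1b stood between 31.7 and 113.4 TPM in all 14 p21-null mice, between 0.11 and 5.66 in the treated p53-null mice, and at 6.48, 61.0, 5.24 and 121.4 in the untreated ones. The sum of both genes differed by -0.91 ± 0.47 log2 units in untreated tumours (exact permutation p = 0.0476, two-sided) and by -0.21 ± 0.24 in treated tumours (exact permutation p = 0.386). The sum was chosen after the values were seen, and its treated groups overlapped, between 63.3 and 127.2 TPM in p53-null and between 54.7 and 136.2 in p21-null mice.

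Scube3 (ENSMUSG00000038677, 17:28142141-28174854, plus strand), a secreted glycoprotein with CUB and EGF domains, was lower in p21-null tumours. The untreated p53-null mice were at 8.35, 8.56, 2.61 and 21.6 TPM and the untreated p21-null mice at 0.81, 0.58, 0.8, 0.95 and 0.74. The treated p53-null mice were at 0.83, 10.4, 1.34, 16.2 and 2.07 TPM and the treated p21-null mice between 0.38 and 1.37, so the treated groups overlapped. The p53-null mice differed from each other far more than the p21-null mice did. The difference was -2.38 ± 0.51 log2 units untreated and -1.46 ± 0.43 treated (limma, adjusted p = 0.0201 and 0.0286). It did not pass untreated without p53-null mouse m2119 or m881 or p21-null mouse m4383 (each left out in turn), nor treated without p53-null mouse m2551 or m2769, the latter giving -1.0. The treated call was also lost with a pseudocount of 5 and in the fit of only the groups compared. On the protein-coding scale wild-type tumours stood between 3.25 and 7.86 and the p21-null mice reached 1.59. Their kits differ, so this cannot be read as a difference of genotype.

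**Figure D2:**
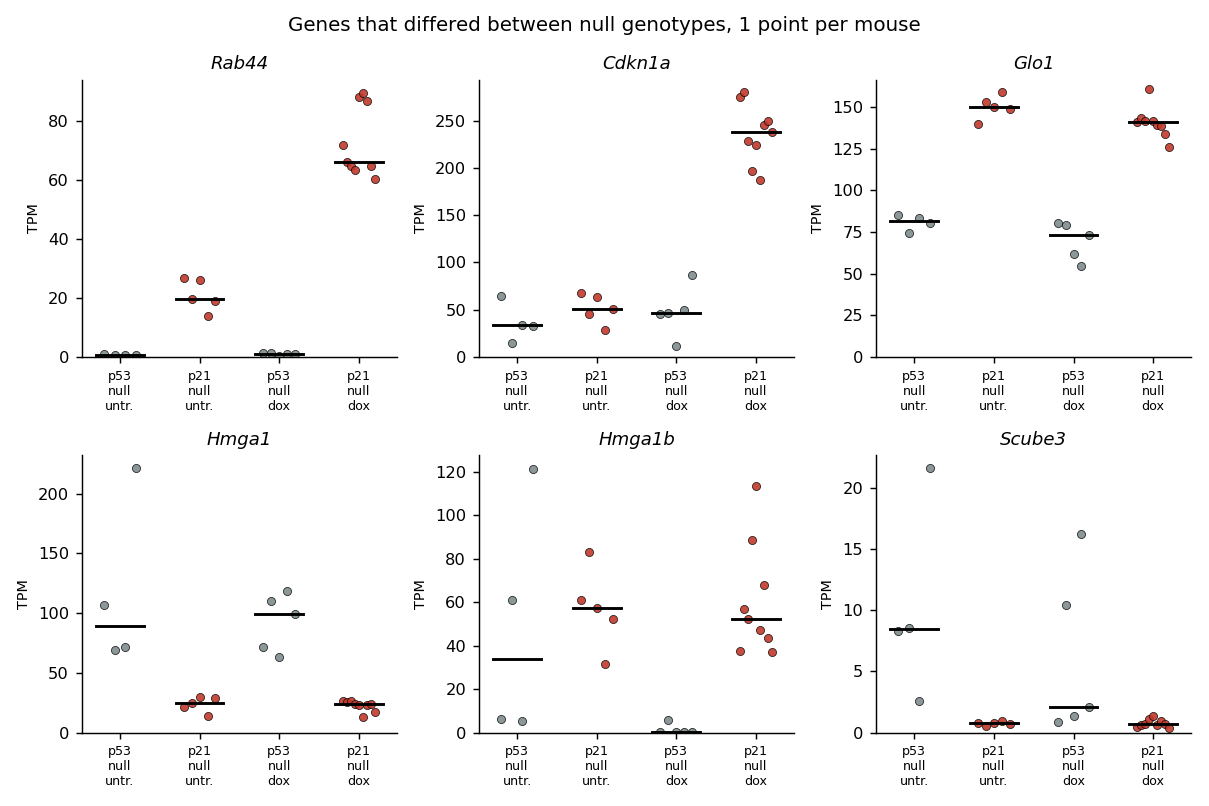
TPM as deposited (vertical, from 0) of Rab44, Cdkn1a, Glo1, Hmga1, its near-identical copy Hmga1b and Scube3 in the 4 null groups (horizontal); each point is 1 mouse and each bar the group median. Rab44 and Glo1 separate p21-null (red) from p53-null mice (grey) with and without doxorubicin, and Hmga1b is at 0.11 to 5.66 in the treated p53-null mice.

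Rgs11 and Grm4 passed in untreated tumours alone. Rgs11, a regulator that switches off G proteins, stood at 27.4, 8.88, 14.3 and 9.7 TPM in untreated p53-null mice and at 42.9, 28.5, 36.2, 35.1 and 34.6 in untreated p21-null mice, without overlap. The difference was 1.30 ± 0.24 log2 units untreated (limma, adjusted p = 0.00672) and 0.45 ± 0.20 treated (adjusted p = 0.132), and the untreated call was lost in the fit of only the groups compared. It overlaps Arhgdig on the other strand, and reads of both cannot be told apart in the null libraries, whose kit does not keep strand. Grm4, a metabotropic glutamate receptor, stood at 0.27, 0.04, 0.11 and 0.11 TPM in untreated p53-null mice and at 2.39, 5.77, 1.89, 0.64 and 1.63 in untreated p21-null mice. It reached 1 TPM in 7 tumours, and no p53-null or wild-type mouse stood above 0.34, so it passed the filter through p21-null tumours. Its difference of 1.46 ± 0.34 (limma, adjusted p = 0.0353) rests on low values, and was lost in 8 of 23 fits that each left out 1 mouse, with a pseudocount of 5, without a filter on low values and in the fit of only the groups compared. Whether the genotype difference of either gene changed with treatment did not pass the interaction test.

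Members that passed in treated tumours alone were mostly shifted by less than 1 log2 unit. After Rab44, Hmga1, Scube3, Def6, Mdga1 and Glo1, the largest was Kifc5b, a kinesin motor, at 0.87 ± 0.20 (limma, adjusted p = 0.00687). Kifc5b is near-identical to Kifc1, which stood between 19.4 and 62.7 TPM in the treated p21-null mice and between 24.6 and 33.6 in the treated p53-null mice, so reads may have been split between them. The treated p21-null mouse m4533 was lowest for both, at 4.54 TPM of Kifc5b, while the other treated p21-null mice stood between 8.94 and 15.3 and the treated p53-null mice between 5.07 and 6.59. Tmem8, a membrane protein that acts on GPI anchors, differed by 0.69 ± 0.19 (limma, adjusted p = 0.0191) and Mapk13, the stress kinase p38 delta, by 0.64 ± 0.18 (adjusted p = 0.0221). Both calls were lost without p53-null mouse m2688 or m2769, and that of Mapk13 also without m2237. Mapk13 stood at 59.3, 94.3, 69.6, 61.0 and 89.1 TPM in the treated p53-null mice and between 86.7 and 145.7 in the treated p21-null mice, which overlap.

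Lower in treated p21-null tumours were Pacsin1, a membrane-curving protein best known from neurons (-0.54 ± 0.15; limma, adjusted p = 0.0241), Ergic1, a cargo protein between endoplasmic reticulum and Golgi (-0.50 ± 0.12; 0.00805), and Pknox1, a homeodomain factor (-0.42 ± 0.13; 0.0361). The Pacsin1 call was lost without p53-null mouse m2688, which gave -0.35, and the Pknox1 call in 7 of 23 fits that left out a mouse, without a filter on low values and in the fit of only the groups compared. Cmtr1 differed by -0.39 ± 0.13 log2 units (limma, adjusted p = 0.0442), a call lost in 13 of 23 fits that left out a mouse. Ergic1 held its call in all 23 fits that left out a mouse, and its untreated groups did not overlap, at 59.1, 66.7, 65.0 and 68.9 TPM in p53-null and 54.6, 51.6, 47.5, 37.4 and 49.6 in p21-null mice. Named after their values were seen, Axin1 (-0.39), Zbtb9 (-0.37), Mapk14 (-0.31) and Lemd2 (0.30) made up the rest of the 17. Axin1 is the scaffold of the complex that degrades beta-catenin, on which Wnt signals act. Its mean was 30.7 ± 4.18 TPM (SD, n = 4) in untreated p53-null and 23.3 ± 2.9 (n = 5) in untreated p21-null tumours, and 28.0 ± 3.35 (n = 5) and 21.3 ± 4.27 (n = 9) in treated tumours. Its difference was -0.38 ± 0.15 untreated, which did not pass, and -0.39 ± 0.13 treated, which did (limma, adjusted p = 0.248 and 0.0404).

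How the 17 calls split by sign depended on the scale. The median of all genes stood at -0.10 log2 units in that comparison as deposited and at -0.01 after median-of-ratios scaling, with which 11 members were higher and 6 lower. On the protein-coding scale, 8 were higher and 14 lower, of 85 members tested there. The count fell to 9 without p53-null mouse m2688 and to 10 without m2769, while the share over all genes fell to 9.02% and 9.59%.

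The differences bore little relation to distance from Cdkn1a. In untreated tumours, 2 of 33 members under 1 Mb passed (6.06%), 3 of 18 at 1 to 2 Mb (16.7%) and 1 of 31 at 2 to 3 Mb (3.23%). In treated tumours the counts were 7 of 33 (21.2%), 4 of 18 (22.2%) and 6 of 31 (19.4%). The median size of the log2 fold change in these bins was 0.18, 0.24 and 0.17 untreated and 0.24, 0.24 and 0.27 treated. Across the 82 genes, which share mice and libraries, Spearman's coefficient of size against distance was -0.047 untreated and -0.011 treated, and -0.011 and 0.026 without Rab44. Under 1 Mb in untreated tumours the calls were Rab44, 23.2 kb away, and Scube3, 948.8 kb away.

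Chromosome 17 as a whole held a larger share of calls than the rest of the genome. Outside the window, 24 of 621 protein-coding genes passed in untreated tumours (3.86%) and 20 (3.22%) passed in both comparisons with the same sign. For the 13447 protein-coding genes of other chromosomes these shares were 0.878% and 0.469%. The share of the members lay above both in untreated tumours, and for treated tumours the shares were 20.7%, 19.2% and 14.6%. In tiles of 6 Mb laid outwards from the window, the tile next to it on the left held 12 calls of 127 genes untreated (9.45%) and the one on the right 3 of 157 (1.91%). The leftmost tile, centred 24 Mb away, held 7 of 27 (25.9%). Tiles from 12 Mb rightwards held 0 calls apart from 1 of 26 at 48 Mb. Genes of a tile are not independent, and no test of these shares was made.

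**Figure D3:**
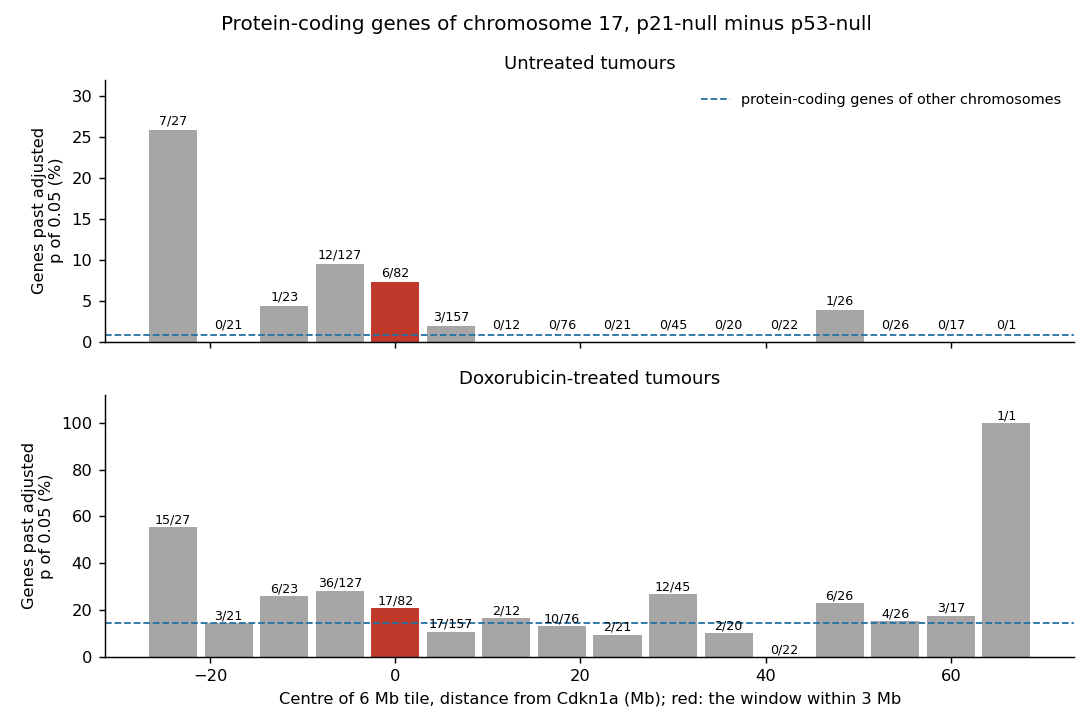
Share of protein-coding genes past an adjusted p of 0.05, p21-null minus p53-null (vertical, percent), in 6 Mb tiles of chromosome 17 placed by the distance of their centre from Cdkn1a in Mb (horizontal), untreated (top) and treated (bottom); labels give genes called of genes tested, red is the window and the dashed line the share on other chromosomes. Most untreated calls lie in the window (6 of 82), in the tile to its left (12 of 127) and in the leftmost tile (7 of 27), and the tile at the right end holds 1 gene.

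Doxorubicin changed few members. In p21-null tumours, 8 of 82 passed (9.76%), 5 up and 3 down, against 5.65% of all genes. In p53-null tumours 1 passed, Cmtr1 (1.22%, against 0.973%), and in wild-type tumours 2 passed, Def6 and Mdga1 (2.44%, against 2.55%). The p53-null and wild-type shares lie near the background, and the p21-null count was 5 without untreated mouse m4116, m4383 or m4536. Beside them, of 20 listed p53 targets outside the window, 17 rose with doxorubicin in p21-null, 18 in wild-type and 0 in p53-null tumours by limma (5 of 20 there at an unadjusted p under 0.05). Of 40 genes of the p21 and cyclin-dependent kinase pathway, 0 passed limma in any doxorubicin comparison, with 4, 0 and 17 at an unadjusted p under 0.05 in p21-null, p53-null and wild-type tumours. Between treated genotypes 3 of these 40 were lower in p21-null tumours, a smaller share than the 14.5% of all genes that passed there. They were Ccnd2 and Ccnd3, cyclins of G1 phase (-1.36 and -0.37), and Cdkn1c, the p57 inhibitor (-1.55). In untreated tumours 0 of the 40 passed limma (6 at an unadjusted p under 0.05), with a median of -0.10.

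Def6 (ENSMUSG00000002257, 17:28207778-28228608, plus strand) encodes an exchange factor for small GTPases best known from lymphocytes. It stood at 23.0, 20.1, 23.0, 15.1 and 21.2 TPM in untreated p21-null mice and between 36.6 and 47.6 in treated ones. In p53-null mice it was at 20.8, 12.7, 16.0 and 41.4 (m881) untreated and at 15.7, 24.7, 13.5, 21.1 and 16.7 treated. On the protein-coding scale wild-type mice lay between 13.9 and 27.5 untreated and between 39.0 and 52.7 treated. Treated mice were above all untreated mice of their genotype in wild-type and p21-null, and not in p53-null tumours. Def6 rose by 0.98 ± 0.19 log2 units in p21-null (limma, adjusted p = 0.00191) and by 0.74 ± 0.14 in wild-type tumours (adjusted p = 0.0163), and differed by -0.19 ± 0.22 in p53-null tumours (adjusted p = 0.807). The treated genotypes differed by 1.15 ± 0.19 (limma, adjusted p = 0.000328). The interaction of 1.17 did not pass.

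Mdga1 (ENSMUSG00000043557, 17:29827949-29970087, minus strand), a GPI-anchored surface protein that binds neuroligins, followed the same order at lower levels. It stood at 1.64, 1.13, 1.97, 1.21 and 1.05 TPM in untreated p21-null mice and between 3.84 and 4.74 in treated ones. In p53-null mice it was at 1.65, 2.1, 1.81 and 1.26 untreated and at 2.55, 1.04, 1.65, 1.03 and 1.64 treated. Wild-type mice lay, on the protein-coding scale, between 1.04 and 2.35 untreated and between 2.98 and 9.85 treated. Mdga1 rose by 1.18 ± 0.13 log2 units in p21-null (limma, adjusted p = 2.35e-06) and by 0.44 ± 0.08 in wild-type tumours (adjusted p = 0.0136), the latter call being lost in the fit of all 6 groups. Protein-coding genes hold 9.48% of TPM in wild-type and 83.95% in null libraries, so wild-type values lie closer to the pseudocount of 1, and on the protein-coding scale the wild-type rise was 1.41. The difference between treated genotypes was 1.09 ± 0.13 (limma, adjusted p = 4.12e-06) and exceeded the untreated one by 1.27 ± 0.20 (interaction, adjusted p = 0.00133).

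Of the markers of other cells, those of macrophages rose in the genotypes where Def6 and Mdga1 rose. Other lists leaned partly the same way. With doxorubicin the median change of 5 neutrophil markers was 1.45 log2 units in p21-null, 0.83 in p53-null and 0.47 in wild-type tumours. By limma 0, 0 and 1 of 5 passed, with 5, 0 and 1 at an unadjusted p under 0.05. The basal marker Krt5 rose in wild-type tumours and was higher in treated p21-null than treated p53-null tumours. With doxorubicin in p21-null tumours 0 of 10 basal markers passed. Markers of T and NK cells, fibroblasts and endothelium followed other orders. In bulk tumours, fewer cells of a type and less RNA per cell cannot be told apart. The 11 macrophage markers, none at 0, summed to between 1191.8 and 2157.7 on the protein-coding scale in untreated and between 1886.4 and 5242.9 in treated p21-null mice, and 6 of 11 rose (limma). In wild-type mice they summed to between 1200.6 and 1921.8 untreated and between 2044.9 and 3907.4 treated, and 8 of 11 rose. In p53-null mice they summed to between 1422.4 and 2001.4 untreated and between 774.3 and 3558.3 treated, and 0 of 11 passed (1 at an unadjusted p under 0.05). Between the treated genotypes 4 of 11 were higher in p21-null tumours. The 10 markers of T and NK cells summed to between 15.8 and 29.1 in untreated and 21.2 and 74.8 in treated p21-null mice. There 2 of 10 rose by limma (8 at an unadjusted p under 0.05), with a median change of 0.71 log2 units. In p53-null mice they summed to between 34.0 and 69.0 untreated and 30.5 and 111.0 treated, and in wild-type mice to between 16.6 and 45.6 and between 25.0 and 41.3. With doxorubicin 0 of 10 passed limma in either (2 and 1 at an unadjusted p under 0.05). Between the treated genotypes 0 of 10 passed limma (2 at an unadjusted p under 0.05), with a median of -0.42 in p21-null minus p53-null. Between the treated genotypes 3 of 8 fibroblast and 3 of 6 endothelial markers were lower in p21-null tumours. With doxorubicin 5 of 5 red blood cell markers fell in p21-null, 2 of 5 in p53-null and 3 of 5 in wild-type tumours. Of all genes, 14.5% passed between the treated genotypes. With doxorubicin 5.65% passed in p21-null, 0.973% in p53-null and 2.55% in wild-type tumours. The part of these cells in the Def6 and Mdga1 values was not tested. The labelled mammary tissue showed its luminal and basal markers, which summed to at least 2409.8 and 1854.7 in every null mouse.

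Cmtr1, the cap methyltransferase whose human form is also known as an interferon-induced protein, rose in both null genotypes. It stood at 27.6, 18.6, 23.3 and 20.1 TPM in untreated and 36.4, 31.1, 44.4, 30.4 and 40.3 in treated p53-null mice. In p21-null mice it was at 21.8, 17.9, 17.6, 16.3 and 21.1 untreated and between 21.8 and 36.9 treated. The rise was 0.68 ± 0.15 log2 units in p53-null (limma, adjusted p = 0.0284) and 0.52 ± 0.13 in p21-null tumours (adjusted p = 0.0153). In wild-type tumours it was 0.38 ± 0.15, which did not pass (limma, adjusted p = 0.238). The p53-null call was lost in 5 of 23 fits that left out a mouse (m2119, m881, m2237, m2688 or m2771), and the p21-null call without untreated mouse m4536; both were lost with tumours as separate samples, and the p53-null call in the fit of only the groups compared. Cmtr1 overlaps Gm28043 on its own strand and Ccdc167 on the other, and its reads cannot be fully told apart from theirs.

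Spdef, an ETS factor of secretory epithelium, fell by 1.27 ± 0.31 log2 units in p21-null tumours (limma, adjusted p = 0.0159). It stood at 6.93, 19.6, 10.4, 6.41 and 7.46 TPM untreated and between 1.56 and 9.2 treated, with overlap. In p53-null tumours the difference was -0.79 ± 0.37 (limma, adjusted p = 0.413), from 8.87, 6.76, 7.4 and 8.38 TPM to 4.07, 3.22, 2.02, 5.34 and 7.34. The p21-null call was lost without untreated mouse m4383 or m4536. Rgs11 fell by 0.85 ± 0.20 in p21-null tumours (limma, adjusted p = 0.0135), to between 14.7 and 30.3 TPM, a call lost without untreated mouse m4116 and with tumours as separate samples. Itpr3, an inositol trisphosphate receptor named after its values were seen, fell by 0.56 ± 0.15 (limma, adjusted p = 0.0318). Kifc5b rose by 0.73 ± 0.20 (limma, adjusted p = 0.0303), with treated mice between 4.54 and 15.3 TPM, and lost its call in 7 of 23 fits that left out a mouse.

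**Figure D4:**
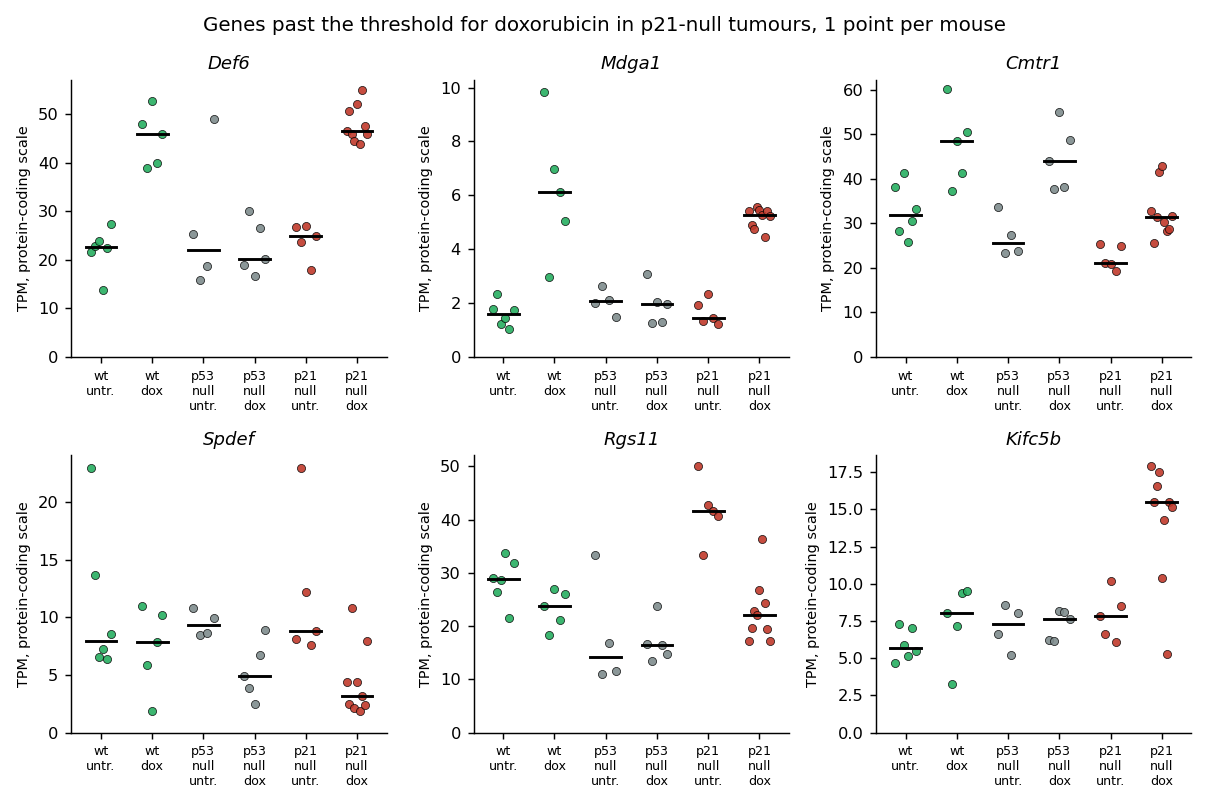
TPM on the protein-coding scale (vertical, from 0) of 6 members in the 6 groups (horizontal; wt, wild-type; untr., untreated; dox, doxorubicin); each point is 1 mouse and each bar the group median. Def6 and Mdga1 are high in treated wild-type and treated p21-null mice and not in treated p53-null mice, while Cmtr1 is higher in treated than untreated mice of each genotype by median.

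By role, calls were spread over the window, to be read against 1.2% of all genes called in untreated and 14.5% in treated tumours. Of 19 members in kinases and signalling, 2 were higher (Grm4, Rab44) and 1 lower (Scube3) in untreated p21-null tumours, and 3 higher and 3 lower in treated ones. Of 13 members in transcription and chromatin, 1 was lower untreated (Hmga1). In treated tumours 3 were lower and 1 was higher, the latter being Kifc5b, a kinesin motor that the list holds. Of 11 in RNA processing and translation, among them the highly expressed Rps10 and Rpl10a, 0 passed limma untreated (3 at an unadjusted p under 0.05) and 1 was lower treated (Cmtr1). Glo1 was the call among 11 members in mitochondria and metabolism in both comparisons. Among 8 members in death, stress and proteostasis, including the apoptosis effector Bak1 (named after its values were seen) at 0.00 and -0.07 log2 units, 0 passed limma untreated (0 also at an unadjusted p under 0.05) and Lemd2 was higher treated. Of 3 members in the secreted and epithelial surface list, 0 passed limma untreated (0 at an unadjusted p under 0.05) and 1 was higher treated (Mdga1).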

How the data were processed

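RNA-seq of 40 mammary tumours was analysed. Expression was deposited as TPM values, which the authors made with RSEM on mm10 per the submitters' processing notes, with Ensembl 79 gene models per the deposited file names. Neither the RSEM version nor the aligner is stated in the labels. Each table sums to the same total, so depth is unknown. Gene positions and symbols came from GENCODE M21 (GRCm38), where 42462 of 43346 IDs matched and 884 did not, and promoters from RefSeq.

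Tumours whose titles share a number within a group were averaged as 1 mouse, giving 34 mice. The 16650 genes that reached 1 TPM in 4 or more tumours were fitted as log2(TPM + 1) with limma 3.58.1 (trended, robust) in R 4.3.3 over the 4 null groups, and wild-type tumours alone. Fold changes on this scale understate those of low genes. Benjamini-Hochberg adjusted p under 0.05 over all genes tested counted as past the threshold. Each limma p-value sets a difference against the spread between mice, pooled over the groups fitted and moderated over all genes. Single values used exact two-sided permutation tests, whose smallest p is 0.0159 for 5 mice against 4. The fit was tested on simulated data.

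Named genes were up to 12 members past the threshold with the largest change in each genotype comparison, up to 4 in each doxorubicin comparison and the interaction, the 6 nearest to Cdkn1a and up to 3 genes of other lists by adjusted p. Genes named outside this rule are marked. The members and lists were chosen with earlier results of these data known. Alternatives changed the pseudocount, filter, scaling, treatment of tumours of 1 mouse, groups fitted and mice included.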

Additional observations from a re-analysis of the deposited data

Results flagged for a closer look

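The genotype difference changed with treatment for 2 members by limma's interaction test. For Rab44 it was larger in treated tumours by 1.6 log2 units, and for Mdga1 by 1.27. Single mice stood apart from their group in 5 of 126 groups tested with Dixon's criterion, which chance flags in about 1 of 20. On the protein-coding scale, wild-type doxorubicin mouse m1188 was lowest for Glo1 at 65.7 (the others 75.8 to 77.7) and for Kifc5b at 3.24 (7.14 to 9.5). Wild-type untreated mouse m713 was lowest for Def6 at 13.9 (21.6 to 27.5). Among treated p21-null mice, in deposited TPM, m4533 was lowest for Kifc5b at 4.54 (8.94 to 15.3) and m4380 highest for Pacsin1 at 0.4 (0.18 to 0.25).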

How the results depend on the processing

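No paired analysis was possible because the groups share no mouse numbers. Rab44, Glo1 and Hmga1 passed in both genotype comparisons with the same sign in every setting run, apart from the sum of Hmga1 and Hmga1b in treated tumours. In treated tumours 17 members passed, and 11 when the fit held only the groups compared. For doxorubicin in p53-null tumours the count of 1 became 2 with a pseudocount of 5, 2 after a filter on mean TPM at 5, 2 in the fit of all 6 groups, 0 with tumours as separate samples and 0 in the fit of only the groups compared. Interaction calls fell from 2 to 1 with a pseudocount of 0.1 and to 1 after the filter at 5. For wild-type tumours the count of 2 became 0 after the filter at 5, 5 on the protein-coding scale and 8 with median-of-ratios scaling. That scaling gave 7 members past the threshold in both genotype comparisons in place of 4. It also turned Stk38 in treated tumours to 0.10, and leaving out a mouse gave -0.07 to 0.06. Leaving out each mouse in turn gave 4 to 7 calls untreated, 9 to 21 treated, 5 to 10 for doxorubicin in p21-null, 0 to 2 in p53-null and 2 to 3 in wild-type tumours, 2 to 3 for the interaction and 3 to 5 in both genotype comparisons. The cause of these changes was not tested. Tumours of 4 to 9 mice a group and unknown depth limit what can be seen in low genes such as Grm4 and Pacsin1.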

Other observations

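Outside the window, chromosome 17 held genes that passed in both genotype comparisons with the same sign, named here after their values were seen. Between 22.7 and 21.1 Mb to the left of Cdkn1a, Dynlt1b, a dynein light chain, was higher in p21-null tumours by 1.47 log2 units untreated and 1.54 treated. In the same stretch Tagap1 differed by -1.84 and -1.54 and Rsph3a by -1.16 and -1.11 (limma, all adjusted p under 0.05). Ermard, 14.0 Mb to the left, was higher by 1.23 and 1.81. Several of these belong to families of near-identical copies, whose reads may be split.

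Rpl35a-ps3, a ribosomal protein pseudogene inside Rab44 on the other strand, stood at 357.5, 395.4, 498.1 and 412.2 TPM in 4 of 5 treated p53-null mice and at 0.52 in the fifth. It was at most 2.28 in the other null mice. Rab44 was low in all 5 of those mice.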
